A study of Mus musculus with 2 samples.

Results

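Immunoglobulin light chain transcripts were examined in clonotype lists made from T cells. The RNA of hepatic CD8αα T cells and of hepatic CD8αβ T cells from dnTGFβRII (TG) mice gave 1 bulk library per cell type. Both libraries came from C57BL/6 animals with an age of 10 weeks in the labels, and all of them carried the same transgene, a dominant-negative human TGF-β receptor II driven by the mouse Cd4 promoter, so no wild-type library enters the comparison. How many mice contributed to a library is not given in the sources used here. Each entry of the lists, a nucleotide CDR3 with its best V and J hits, is called a clonotype here, and it was kept when its first V hit and first J hit were both kappa (IGK) or both lambda (IGL). This kept 242 of 2508 clonotypes and 1063 of 9348 reads, with 147 clonotypes (828 reads) in the CD8αα library and 95 clonotypes (235 reads) in the CD8αβ library. They used 72 of the 253 V genes listed over all receptor chains, of which 69 were IGKV genes and 3 were IGLV genes.

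Antibody light chains are made by B-lineage cells from the kappa or the lambda locus. A light chain V segment is joined directly to a J segment, without the D segment of heavy chains, and the join lies within CDR3, the loop that contributes to antigen contact. In the mouse most light chains are kappa. Kappa V genes lie in both orientations along their locus, so that some are joined by deletion and some by inversion, and light chain joins usually carry few added (N) bases.

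The labels name T cells, and the sort markers CD8α and CD8β are not receptor chains and are not in these lists. TCR constant regions were present, with 1262 TRAC reads in the CD8αα library and 697 in the CD8αβ library. Constant regions of B-lineage cells were present too. Among heavy chain reads, IGHM (the heavy chain of IgM) had 196 reads in CD8αα and 36 in CD8αβ, IGHA (IgA) had 158 and 98, the IGHG genes (IgG) together had 119 and 53, and IGHD (IgD) had 20 and 6. As shares of heavy chain reads, 508 in CD8αα and 205 in CD8αβ, IGHM was 38.6% and 17.6%, and IGHA 31.1% and 47.8%. The IGHG genes were 23.4% and 25.9%, and IGHD 3.94% and 2.93%. IGHE (IgE) had 0 and 2 reads. In bulk RNA, more cells of a type and more RNA per cell cannot be told apart.

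Because each cell type had 1 library, the tests below compare these 2 libraries and not the cell types, and the differences have no replicate check. Reads carry no molecular identifiers and are not independent molecules. Intervals on reads may therefore be too narrow, and p-values on reads too small. The 95% Wilson confidence intervals, Fisher's exact tests and the floor of 3 reads cover counting error only, as if counts were independent. That floor was 0.389% of the kappa reads of CD8αα and 1.44% of those of CD8αβ, and 5.36% and 11.5% of their lambda reads.

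The finding that the sequences below carry is that many light chain CDR3s were letter for letter the same in the 2 libraries and were made of germline letters alone. The germline 5′ ends of the kappa J segments, read from GENCODE annotated segments on GRCm38 up to the phenylalanine codon that closes CDR3, differ in their first bases and end alike. They lie on the plus strand of chromosome 6, Igkj1 at chr6:70722562-70722599, Igkj2 at chr6:70722916-70722958, Igkj4 at chr6:70723548-70723585 and Igkj5 at chr6:70723886-70723927.
IGKJ1: GTGGACGTTC
IGKJ2: TGTACACGTTC
IGKJ4: ATTCACGTTC
IGKJ5: GCTCACGTTC

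The next CDR3s were listed in both libraries and are shown because each V segment meets a J segment at almost the same base. Lower case marks bases that match the germline V segment without a break, and capitals mark the rest, which come from the J segment. All of the 4 IGKV1-117 sequences share the same V part and differ after it, and the second IGKV1-117 join to IGKJ1 keeps 25 V bases where the first keeps 23.
IGKV1-117 with IGKJ1 (CD8αα 5 reads, CD8αβ 6 reads): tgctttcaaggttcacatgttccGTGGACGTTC
IGKV1-117 with IGKJ1, later join (4 and 7 reads): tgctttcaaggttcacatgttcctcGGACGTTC
IGKV1-117 with IGKJ2 (6 and 1 reads): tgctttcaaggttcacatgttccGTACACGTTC
IGKV1-117 with IGKJ4 (10 and 4 reads): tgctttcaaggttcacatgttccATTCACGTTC
IGKV1-135 with IGKJ2 (17 and 4 reads): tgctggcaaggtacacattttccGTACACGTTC
IGKV1-135 with IGKJ1 (12 and 1 reads): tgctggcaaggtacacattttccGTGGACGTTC
IGKV1-135 with IGKJ1, later join (7 and 2 reads): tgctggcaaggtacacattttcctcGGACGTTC
IGKV14-111 with IGKJ5 (8 and 8 reads): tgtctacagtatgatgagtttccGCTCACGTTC
IGKV5-39 with IGKJ4 (22 and 2 reads): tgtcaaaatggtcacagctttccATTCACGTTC
IGKV2-109 with IGKJ2 (13 and 5 reads): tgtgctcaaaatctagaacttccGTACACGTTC

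The 4 lambda CDR3s listed in both libraries are shown next with the same use of capitals. IGLV1 with IGLJ1 appears in 2 forms, and the longer form holds bases that the GENCODE germline V and J segments do not account for. The alignments in the lists, however, left no bases between V and J in this form and held no mismatch.
IGLV1 with IGLJ1 (14 and 11 reads): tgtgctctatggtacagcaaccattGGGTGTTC
IGLV1 with IGLJ1, longer (1 and 2 reads): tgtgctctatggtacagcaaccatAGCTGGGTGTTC
IGLV1 with IGLJ3 (8 and 3 reads): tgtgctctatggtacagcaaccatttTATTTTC
IGLV3 with IGLJ2 (1 and 2 reads): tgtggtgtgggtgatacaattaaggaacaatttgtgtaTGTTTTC

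Nucleotide CDR3s found in both libraries were frequent among light chains and rare among heavy chains. In total 35 light chain CDR3s were in both lists, 31 kappa and 4 lambda. Of the 138 kappa clonotypes in CD8αα, 31 had such a CDR3 (22.5%, 95% confidence interval 16.3 to 30.1), and they held 227 of 772 kappa reads, which is 29.4%. In CD8αβ they were 32 of 88 clonotypes (36.4%, 27.1 to 46.8) with 75 of 209 reads, which is 35.9%. Among heavy chain clonotypes, 2 of 133 in CD8αα (1.50%) and 2 of 85 in CD8αβ (2.35%) had a CDR3 in both. The kappa share was above the heavy chain share within each library by two-sided Fisher's exact tests (p = 2.80e-08 in CD8αα and p = 3.60e-09 in CD8αβ). These tests treat clonotypes as independent, and the same CDR3s enter the test of each library.

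T cell receptor β and α chains, which are read from the same libraries, gave lower shares than kappa. TRB had 3 of 337 clonotypes in CD8αα and 3 of 915 in CD8αβ (Fisher's exact p against kappa = 4.35e-15 and 2.15e-33), and TRA had 1 of 222 and 1 of 452 (p = 2.66e-13 and 7.18e-27). TRG had 5 of 95 and 5 of 11. Lambda had 4 of 9 in CD8αα and 5 of 7 in CD8αβ, numbers too small to rank against kappa.

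**Figure D1:**
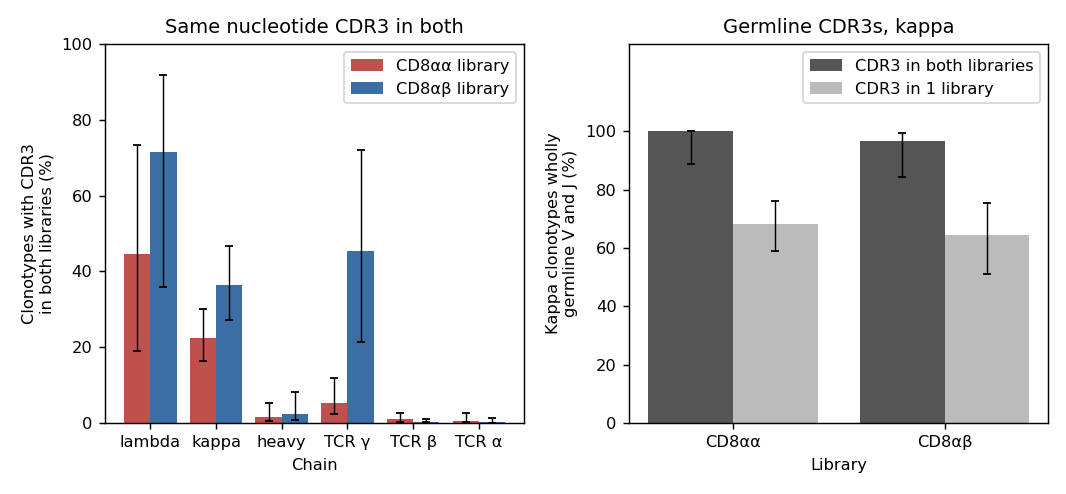
Left, share of clonotypes (%) whose nucleotide CDR3 was listed in both libraries, by chain; right, share of kappa clonotypes (%) made wholly of germline V and J letters, for CDR3s in both libraries and in 1. Bars are single libraries and lines are 95% Wilson intervals; kappa stands at 22.5% and 36.4% on the left, heavy chain at 1.50% and 2.35%.

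The share depended on what was counted. When only clonotypes with at least 2 reads in their library were used, 13 kappa CDR3s were left in both, which was 11.8% of 110 clonotypes in CD8αα and 32.5% of 40 in CD8αβ. When the amino acid CDR3 had to match and not the nucleotide CDR3, the shares were 33.3% and 51.1%. In CD8αα the share was 4 of 28 for clonotypes with 1 read, 9 of 54 with 2 to 4 reads, 8 of 28 with 5 to 9 and 10 of 28 with 10 or more. In CD8αβ it was 18 of 48, 10 of 29 and 4 of 11 over the first 3 of these classes.

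The 31 kappa CDR3s in both libraries used 24 IGKV genes in 29 V-J pairs, counted by the hits of the CD8αα library. IGKV1-117 carried 4 of them, with 25 reads in CD8αα and 18 in CD8αβ. IGKV1-135 carried 3, with 36 and 7 reads, and IGKV14-111 and IGKV6-15 carried 2 each. All of the other genes carried 1. Every kappa J gene of the lists took part, IGKJ1 in 12 CDR3s, IGKJ2 in 8, IGKJ5 in 6 and IGKJ4 in 5.

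Reads for these CDR3s ran from 1 to 22 in CD8αα (median 5) and from 1 to 8 in CD8αβ (median 1). Of the 31, 23 had more reads in CD8αα, 3 had more in CD8αβ and 5 had the same number, where the CD8αα library held 772 kappa reads and the CD8αβ library 209. The 3 with more reads in CD8αβ were both IGKV1-117 joins to IGKJ1 shown above and IGKV17-127 with IGKJ5, at 1 read in CD8αα and 4 in CD8αβ. IGKV5-39 with IGKJ4 had 22 against 2 reads, and IGKV17-121 with IGKJ2 had 16 against 1.

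**Figure D2:**
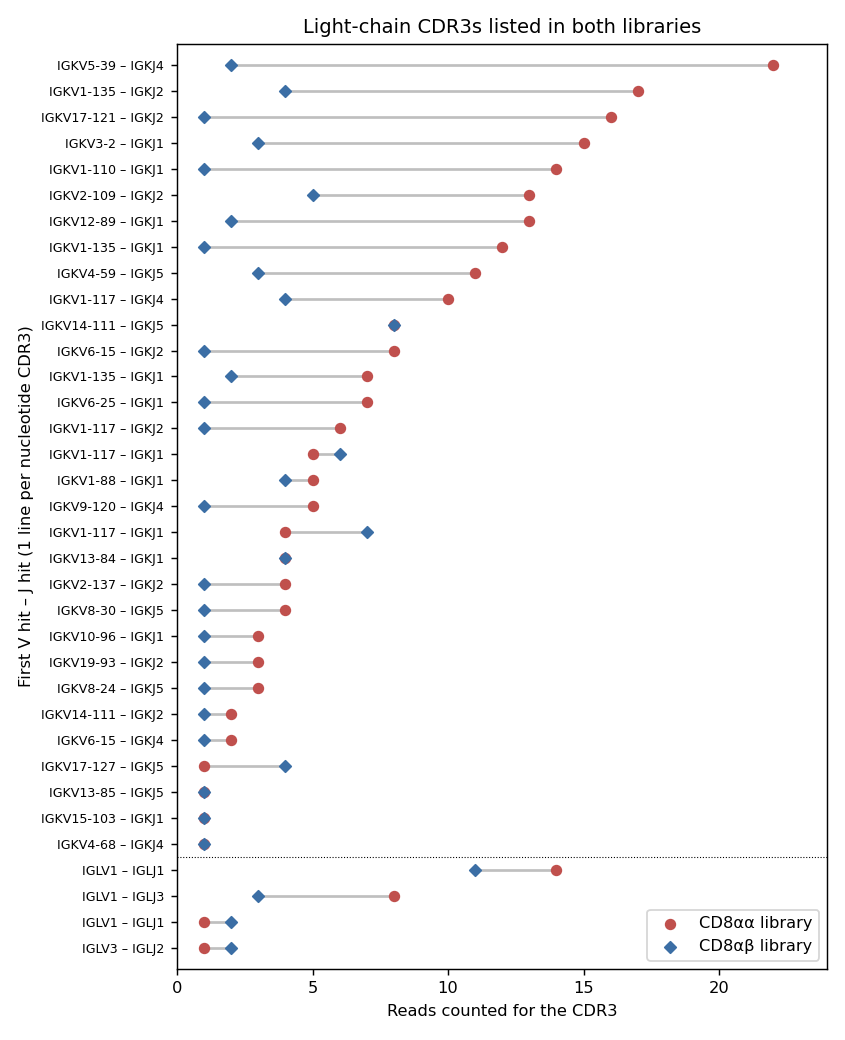
Reads counted (x axis) for each of the 35 light chain CDR3s in both libraries, 1 line per CDR3, labelled by the V and J hits in CD8αα, with kappa above the dotted line and lambda below. Circles (CD8αα) lie to the right of diamonds (CD8αβ) for 23 of the 31 kappa CDR3s.

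Of the 31 CDR3s, 28 had the same V and J hits in both libraries and 3 did not. The same letters were called IGKV4-68 with IGKJ4 in CD8αα and IGKV4-72 with IGKJ5 in CD8αβ, IGKV13-85 and IGKV13-84 with IGKJ5, and IGKV17-127 with IGKJ5 in CD8αα was called IGKV17-121 with IGKJ5 (3 reads) and IGKV17-127 with IGKJ4 (1 read) in CD8αβ. These are pairs of related V genes, and a read that covers little of the V segment may not separate them. More than 1 V hit was listed for 24 of 138 kappa clonotypes in CD8αα and 31 of 88 in CD8αβ, and the top score was tied in 3 and 10 of them. Calls of single V genes are uncertain to that extent.

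Sharing a V-J pair did not always mean sharing a CDR3. Of 142 kappa V-J pairs, 40 were in both libraries, a count that also moves with depth and was not made over all chains. Of these 40, 26 carried a CDR3 in both under the same hits. The other 14 had different CDR3s on each side. They included IGKV2-137 with IGKJ5 (22 reads in CD8αα and 4 in CD8αβ), IGKV4-80 with IGKJ1 (10 and 7), IGKV6-17 with IGKJ1 (16 and 1) and IGKV8-19 with IGKJ5 (3 and 9).

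The kappa CDR3s in both libraries were wholly germline more often than the rest. All 31 in CD8αα were made wholly of letters of the germline V end and J start, against 73 of the 107 other kappa clonotypes (two-sided Fisher's exact p = 7.23e-05, adjusted over 10 tests 0.000723). In CD8αβ it was 31 of 32 against 36 of 56 (exact p = 0.000476, adjusted 0.00159). This measure was added after the data had been seen, and the same CDR3s enter the test of each library. It depends on the V call. The shared entry of CD8αβ that was not wholly germline was the one called IGKV17-121 with IGKJ5. Its letters were wholly germline under the IGKV17-127 call of CD8αα. Of the 31 CDR3s, 24 kept exactly 23 bases of the V segment, as in most of the sequences printed above, and 30 were 11 amino acids long.

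By the alignments in the lists, no bases lay between V and J in 31 of 31 shared and 95 of 107 other kappa clonotypes in CD8αα (p = 0.0679, adjusted 0.0754), and in 32 of 32 and 49 of 56 in CD8αβ (p = 0.0451, adjusted 0.0563), both by Fisher's exact test. These differences did not pass after adjustment. Alignments without a mismatch were more frequent among the shared CDR3s, at 30 of 31 against 76 of 107 in CD8αα (adjusted exact p = 0.00381) and 30 of 32 against 39 of 56 in CD8αβ (adjusted exact p = 0.0129). Over all kappa clonotypes, 126 of 138 in CD8αα and 81 of 88 in CD8αβ had no bases between V and J.

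The CDR3 of kappa chains had nearly a fixed length. Of the kappa clonotypes, 129 of 138 in CD8αα (93.5%, 88.1 to 96.5) and 75 of 88 in CD8αβ (85.2%, 76.3 to 91.2) had 11 amino acids, counting the conserved residues at both ends. The difference of 8.25 percentage points did not pass by clonotypes (Fisher's exact p = 0.0635), and by reads the shares were 95.2% and 89.5% (p = 0.00460). Without the CDR3s in both libraries the shares by clonotypes were 92.5% and 78.6% (Fisher's exact p = 0.0213). A length of 10 was found in 5 clonotypes of CD8αα and 9 of CD8αβ, and a length of 12 in 3 of each.

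Mean kappa length was 11.2 amino acids (SD 2.40 over 138 clonotypes) in CD8αα and 10.95 (SD 0.426 over 88) in CD8αβ. The CD8αα mean and its spread rested on 1 clonotype, IGKV4-59 with IGKJ5, with 1 read and a CDR3 of 39 amino acids. Its first 33 bases and its last 33 bases were identical, and the same 33 bases were listed as a separate kappa clonotype of CD8αα with 2 reads. Without it the CD8αα mean was 10.99 (SD 0.242 over 137). Lambda CDR3s had 11 amino acids in 6 of 9 and 5 of 7 clonotypes, and the IGLV3 clonotypes had 15. Heavy chain CDR3s, in contrast, ran from 6 to 20 amino acids in CD8αα and from 8 to 19 in CD8αβ, and their most frequent length held 18.0% and 18.8% of clonotypes.

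**Figure D3:**
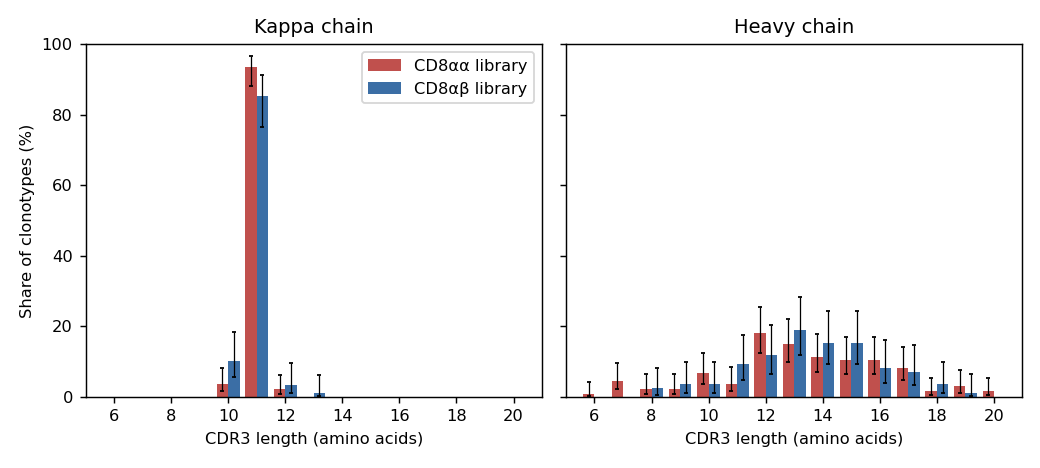
Share of clonotypes (%) by CDR3 length in amino acids for kappa (left) and heavy chain (right), with 95% Wilson intervals, 1 bar per library and length. Kappa bars stand at 11 amino acids (93.5% and 85.2%) while heavy chain bars spread over 6 to 20; the kappa clonotype of 39 amino acids lies outside the axis.

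Light chains made up a larger part of the CD8αα list. They were 13.5% of listed reads in CD8αα (12.7 to 14.4) and 7.31% in CD8αβ (6.46 to 8.26), which differ by 6.19 percentage points (p = 3.24e-20 by Fisher's exact test). By clonotypes they were 15.6% and 6.06%, a difference of 9.58 points (exact p = 1.56e-14). Heavy chains were also a larger part of the CD8αα list, at 8.28% and 6.38% of listed reads and 14.1% and 5.42% of listed clonotypes. TRG was larger there too, at 7.04% and 0.560% of listed reads. TRB, at 48.8% and 57.5% of listed reads, and TRA, at 22.0% and 27.7%, were smaller in CD8αα. A share of listed reads also moves with the number of TCR reads in the list. Heavy chains were 38.0% of immunoglobulin reads in CD8αα and 46.6% in CD8αβ (Fisher's exact p = 0.00168), and 47.5% and 47.2% of immunoglobulin clonotypes (p = 1). The part of B-lineage cells in these differences was not tested.

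Kappa exceeded lambda in both libraries. Kappa had 772 reads in 138 clonotypes and lambda 56 reads in 9 clonotypes in CD8αα, and in CD8αβ kappa had 209 reads in 88 clonotypes and lambda 26 reads in 7. The ratio of kappa to lambda was 13.8 by reads and 15.3 by clonotypes in CD8αα, and 8.04 and 12.6 in CD8αβ. Kappa was 93.2% of light chain reads in CD8αα (91.3 to 94.8) and 88.9% in CD8αβ (84.3 to 92.3), a difference of 4.30 points (Fisher's exact p = 0.0370). Without the largest light chain clonotype of each library that difference was 0.163 points (exact p = 0.883), and with clonotypes of at least 2 reads it was 6.79 points (exact p = 0.00380). By clonotypes the difference was 1.25 points (exact p = 0.793), and 7.87 points with at least 2 reads (exact p = 0.101).

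A kappa constant region (IGKC) was read in 121 of 138 kappa clonotypes of CD8αα and 67 of 88 of CD8αβ. Kappa clonotypes had a median of 3 reads in CD8αα and 1 in CD8αβ, and 20.3% and 54.5% of them had a single read. The largest kappa clonotype had 22 reads in CD8αα (2.85% of kappa reads) and 9 in CD8αβ (4.31%). The effective number of V genes, the inverse of the summed squared shares, was 32.4 by kappa reads in CD8αα and 17.6 in CD8αβ, and 41.6 and 30.7 by clonotypes. These numbers also move with depth, and no test was made.

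The largest light chain clonotypes are printed because they show which joins lead each list. Capitals start at the first base that does not match the germline V segment. In IGKV2-109 with IGKJ5 in CD8αα, and IGKV1-117 with IGKJ4 and IGKV8-19 with IGKJ5 in CD8αβ, this base is a mismatch within V. Further V bases follow it among the capitals. Their alignments held 1, 1 and 2 mismatches in that order, with no bases between V and J, and their CDR3s were not wholly germline. The others were. IGKV5-39 with IGKJ4 (22 reads in CD8αα), IGLV1 with IGLJ1 (10 reads in its larger CD8αβ entry) and IGKV14-111 with IGKJ5 (8 reads in CD8αβ) also belong here and are printed above.
CD8αα, IGKV2-137 with IGKJ5 (22 reads): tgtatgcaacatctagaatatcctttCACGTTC
CD8αα, IGKV2-109 with IGKJ5 (20 reads): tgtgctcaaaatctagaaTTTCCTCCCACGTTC
CD8αα, IGKV3-4 with IGKJ1 (19 reads): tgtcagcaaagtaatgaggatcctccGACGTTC
CD8αα, IGKV9-124 with IGKJ4 (19 reads): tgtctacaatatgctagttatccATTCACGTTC
CD8αα, IGLV2 with IGLJ3 (19 reads): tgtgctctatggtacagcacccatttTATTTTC
CD8αβ, IGKV1-117 with IGKJ4 (9 reads): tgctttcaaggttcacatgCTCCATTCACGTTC
CD8αβ, IGKV8-19 with IGKJ5 (9 reads): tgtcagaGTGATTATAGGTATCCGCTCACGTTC
CD8αβ, IGKV10-94 with IGKJ2 (8 reads): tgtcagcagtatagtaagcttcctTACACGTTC

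The largest clonotypes that were already printed with the shared CDR3s were in both libraries. In the order named, they had 2 reads in CD8αβ, 14 in CD8αα and 8 in CD8αα as the other library. These 8 CDR3s are the rest, so their absence from the other library follows from that division. IGKV1-117 with IGKJ4 had 2 CDR3s in CD8αβ, a germline form in both libraries (10 reads in CD8αα and 4 in CD8αβ) and the changed form with 9 reads in CD8αβ. The 19 reads of IGLV2 with IGLJ3 equalled those of 2 kappa clonotypes, so the last place among the 5 largest of CD8αα was a tie.

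Of the 69 IGKV genes, 62 were listed in CD8αα and 47 in CD8αβ, 40 in both, 22 in CD8αα alone and 7 in CD8αβ alone. These counts also move with depth, which was 772 kappa reads in CD8αα and 209 in CD8αβ. The same overlap was not computed over the V genes of all chains. By reads, 12 of the 69 differed in their share of kappa reads and 2 of 3 IGLV genes in their share of lambda reads (two-sided Fisher's exact tests, Benjamini-Hochberg adjusted over the 253 V genes of all chains). The 14 are 19.4% of the light chain V genes, and 23.3% of all V genes passed. By clonotypes, 0 of 72 light chain V genes passed after adjustment, 0 had an unadjusted p under 0.05, and 0% of all V genes passed.

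Among kappa V genes, IGKV1-117 had the largest difference in share. It had 28 reads in 6 clonotypes of CD8αα and 36 reads in 8 clonotypes of CD8αβ, which is 3.63% of kappa reads (2.52 to 5.19) and 17.2% (12.7 to 22.9), 4.75-fold higher in CD8αβ (Fisher's exact test, adjusted p = 4.05e-09). The gene lies on the plus strand at chr6:68121046-68121827 (GRCm38). Its largest clonotype held 10 reads in CD8αα and 9 in CD8αβ, so several clonotypes made up each count. IGKV14-111 (chr6:68256389-68256869, plus strand) had 18 reads in 3 clonotypes and 19 reads in 6, or 2.33% and 9.09%, 3.90-fold higher in CD8αβ (adjusted exact p = 0.000367).

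The other 7 kappa V genes with a higher share in CD8αβ had few reads. IGKV10-94 had 3 reads in CD8αα and 10 in CD8αβ (adjusted exact p = 0.000275), and 8 of the 10 came from the clonotype printed above. IGKV4-86 had 0 and 7 reads (adjusted exact p = 0.000211, at least 8.62-fold higher in CD8αβ, with 3 reads as the floor), IGKV6-20 had 0 and 6 (0.000771, at least 7.39-fold) and IGKV4-55 had 0 and 5 (0.00305, at least 6.16-fold). IGKV13-84 had 4 and 6 reads, IGKV17-127 had 1 and 4, and IGKV3-5 had 0 and 3, with adjusted exact p from 0.0391 to 0.0417. IGKV4-86, IGKV6-20 and IGKV3-5 were each a single clonotype, and IGKV13-84 no longer passed when reads were split over tied V hits (adjusted exact p = 0.371).

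Higher shares in CD8αα were found for 3 kappa V genes. IGKV6-32 (chr6:70074024-70074603, minus strand) had 31 reads in 3 clonotypes of CD8αα and 0 in CD8αβ (adjusted exact p = 0.00699, at least 2.80-fold higher). IGKV14-126 had 22 and 0 reads (0.0352, at least 1.99-fold), and IGKV15-103 had 28 and 1 (0.0481). With clonotypes of at least 2 reads, IGKV14-126 did not pass (adjusted exact p = 0.0726). IGKV1-135, the most read V gene of CD8αα with 62 reads in 7 clonotypes (8.03% of kappa reads), had 7 reads in CD8αβ (3.35%), and IGKV2-109 had 47 (6.09%) and 5 (2.39%). Neither passed (adjusted exact p = 0.0820 and 0.134), but without the CDR3s in both libraries both did, with a higher share in CD8αα by 4.77 points for IGKV1-135 (adjusted exact p = 0.0226) and 6.24 points for IGKV2-109 (0.00430).

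**Figure D4:**
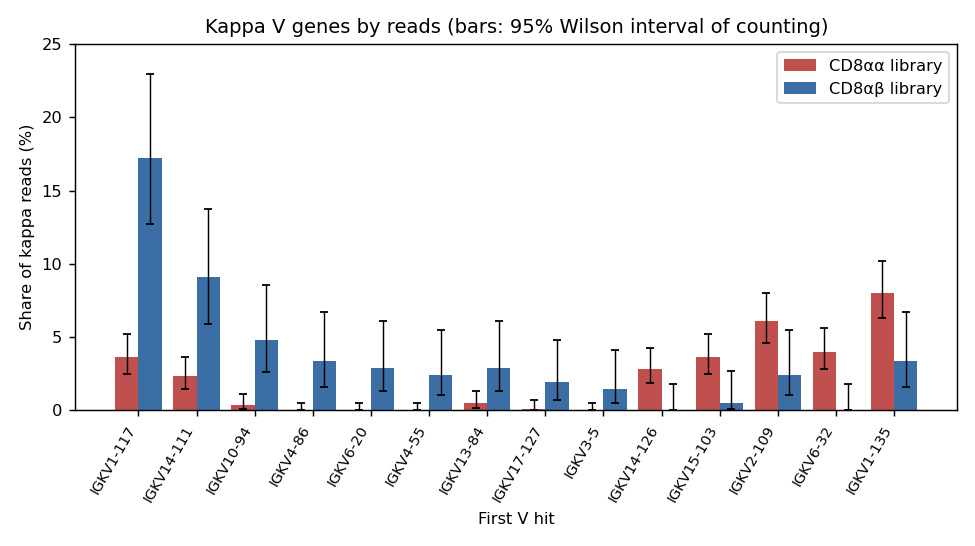
Share of kappa reads (%) by first V hit for the 12 kappa V genes that passed by reads and for IGKV1-135 and IGKV2-109, which did not. Bars are single libraries with 95% Wilson intervals; IGKV1-117 stands at 3.63% in CD8αα and 17.2% in CD8αβ.

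The direction of the V gene calls depended on the denominator. As shares of kappa reads, 3 of the 12 kappa calls were higher in CD8αα and 9 in CD8αβ. This split also moves with depth. IGKV3-5 passed with 0 and 3 reads, while IGKV9-124, with 19 and 0, did not (adjusted exact p = 0.0787). The part of all V genes that passed was not computed for shares of all listed reads. On that scale, 18 kappa V genes passed, with 13 higher in CD8αα and 5 in CD8αβ. The 5 were IGKV1-117, IGKV10-94, IGKV4-55, IGKV4-86 and IGKV6-20, and none of the 12 named genes changed direction. IGKV14-111, IGKV13-84, IGKV17-127 and IGKV3-5 did not pass on that scale (adjusted exact p from 0.102 to 0.224), while IGKV1-135 and IGKV2-109 passed as higher in CD8αα (5.68e-05 and 0.000446).

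By subgroup, the number before the dash in a V gene's name, IGKV4 had 142 of 772 reads in CD8αα and 37 of 209 in CD8αβ (18.4% and 17.7%, adjusted exact p = 1), and IGKV6 had 10.1% and 9.09% (adjusted exact p = 0.894). IGKV1, which holds IGKV1-117 and IGKV1-135, had 17.6% and 26.8% (adjusted exact p = 0.0143). IGKV2 had 11.1% and 5.26% (adjusted exact p = 0.0328).

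All 4 kappa J genes of the lists were used in both libraries. IGKJ1 had 241 of 772 reads in CD8αα and 67 of 209 in CD8αβ (31.2% and 32.1%), IGKJ2 had 155 and 53 (20.1% and 25.4%), IGKJ4 had 177 and 34 (22.9% and 16.3%) and IGKJ5 had 199 and 55 (25.8% and 26.3%). By reads 0 of 4 passed the Fisher's exact test adjusted over the 72 J genes of all chains, 1 had an unadjusted p under 0.05 (IGKJ4, adjusted exact p = 0.0609), and 58.3% of all J genes passed. As shares of all listed reads, all 4 were higher in CD8αα and passed, and the part of all J genes that passed on that scale was not computed. By clonotypes 0 of 8 light chain J genes passed, 0 had an unadjusted p under 0.05, and 1.39% of all J genes passed.

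Lambda was built from few joins. IGLV1 had 31 of 56 lambda reads in CD8αα (55.4%, 42.4 to 67.6) and 24 of 26 in CD8αβ (92.3%, 75.9 to 97.9), with 6 clonotypes in each (adjusted exact p = 0.00563). IGLV2 had 24 reads in 2 clonotypes of CD8αα and 0 in CD8αβ (42.9%, adjusted exact p = 0.000190, at least 3.71-fold higher), and 19 of the 24 came from the IGLV2 and IGLJ3 clonotype printed above. IGLV3 had 1 and 2 reads. The V genes lie on the minus strand of chromosome 16, Iglv1 at chr16:19085017-19085500, Iglv2 at chr16:19260401-19260859 and Iglv3 at chr16:19241207-19241690 (GRCm38).

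IGLJ1 had 22 and 20 reads (39.3% and 76.9%, adjusted exact p = 0.00500), IGLJ3 had 28 and 3 (50.0% and 11.5%, 0.00327), IGLJ2 had 6 and 2, and IGLJ4 had 0 and 1. Leaving out the largest light chain clonotype of each library, which for CD8αβ is a lambda clonotype, left fewer lambda reads. IGLV2 still passed, with a difference of 42.9 percentage points (adjusted exact p = 0.00457). IGLV1 no longer passed, with a difference of -32.1 against -37.0 points in its share of lambda reads (adjusted exact p = 0.0839), nor did IGLJ3, with 31.2 against 38.5 points (0.0707), or IGLJ1, with -23.2 against -37.6 points (0.214). As shares of all listed reads IGLV1 and IGLJ1 did not pass either (0.302 and 0.103).

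**Figure D5:**
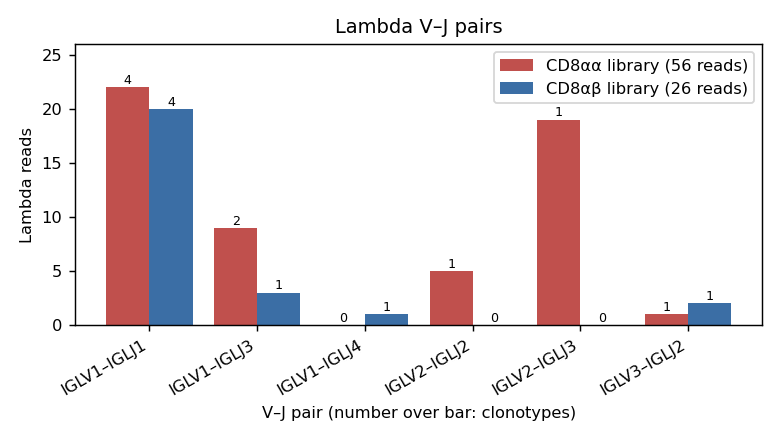
Lambda reads by V-J pair in each library, with the number of clonotypes over each bar. IGLV2 with IGLJ3 stands at 19 reads in CD8αα and 0 in CD8αβ, and IGLV1 with IGLJ1 at 22 and 20 reads in 4 clonotypes each.

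Among V-J pairs, 13 of 148 light chain pairs differed by reads (8.78%, Fisher's exact tests adjusted over 1046 pairs), and 11.3% of all pairs passed. The 11 kappa pairs all had a higher share of kappa reads in CD8αβ. Which pairs pass also moves with depth, which was 772 kappa reads in CD8αα and 209 in CD8αβ. Pairs with 0 and 4 reads passed, but IGKV2-109 with IGKJ5, at 21 and 0 reads, did not (adjusted exact p = 0.0837). The direction of the pairs that passed is therefore not read as a bias. IGKV1-117 with IGKJ1 had 9 reads in CD8αα and 18 in CD8αβ (adjusted exact p = 1.35e-05), and IGKV1-117 with IGKJ4 had 10 and 13 (0.00338). IGKV10-94 with IGKJ2 had 0 and 8 reads (0.000108), IGKV4-86 with IGKJ4 had 0 and 7, IGKV6-20 with IGKJ2 had 0 and 6, and IGKV8-19 with IGKJ5 had 3 and 9. IGKV14-111 passed with IGKJ2 (2 and 7 reads) and with IGKJ5 (8 and 9). The last 3 kappa pairs, IGKV1-110 with IGKJ2, IGKV1-110 with IGKJ5 and IGKV6-17 with IGKJ2, had 0 and 4 reads each. As shares of all listed reads 18 kappa pairs passed, 13 higher in CD8αα and 5 in CD8αβ. The part of all pairs that passed on that scale was not computed.

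The lambda pairs that passed were IGLV2 with IGLJ3 (19 and 0 reads, 33.9% of lambda reads in CD8αα, adjusted exact p = 0.00645) and IGLV1 with IGLJ1 (22 and 20 reads, 39.3% and 76.9%, 0.0212). By clonotypes 0 of 148 light chain pairs passed, 0 had an unadjusted p under 0.05, and 0% of all pairs passed.

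Along the kappa locus, the V genes in use were spread over its length. Of 100 Igkv genes annotated on chromosome 6, 68 were used. When these were divided at the median distance to the J genes, the distal genes held 79 of 137 clonotypes in CD8αα (57.7%) and 51 of 88 in CD8αβ (58.0%), with a Fisher's exact p of 1, and 61.3% and 67.9% of reads (p = 0.0902). Distal clonotypes used a V gene on the same strand as the J genes in 54 of 79 cases in CD8αα and 37 of 51 in CD8αβ, and proximal clonotypes in 15 of 58 and 8 of 37. These counts also move with the strands of the genes in each part of the locus. The share of genes on each strand is not given here, so no preference is read from the counts. IGKV4-77, with 1 clonotype of 2 reads in CD8αα, is annotated as a pseudogene. It was left out of the positions and the germline segments used here, so its clonotype was counted as not wholly germline.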

How the data were processed

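RNA of sorted hepatic CD8αα and CD8αβ T cells was sequenced in bulk, and the authors ran MiXCR (version 3.0.12) to assemble clonotypes. For each clonotype the authors deposited a count of reads, without normalization, and a fraction, the clonotype's part of the library's listed reads. The labels name genome build mm10. The MiXCR command, its segment library and the read filters are not given in the sources used here. The CD8αα list held 6133 reads and the CD8αβ list 3215. Stop codons and frameshifts were absent from the listed CDR3s.

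Counts were used as deposited. Chains were set by the first V and first J hit. Fisher's exact tests, two-sided, compared shares, with Benjamini-Hochberg adjustment over the features of all chains and a threshold of 0.05. Intervals are 95% Wilson intervals. Folds against 0 reads used a floor of 3 reads. CDR3s were compared with GENCODE M21 germline segments (GRCm38), which also gave coordinates. The scripts were tested on simulated data. Tests were run with scipy 1.17.1 under Python 3.11.15, tables with pandas 2.3.3 and numpy 2.4.6, and plots with matplotlib 3.10.9.

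Named were V genes with at least 5% of light chain reads in either library, all IGLV, IGLJ and IGKJ genes, V-J pairs with a CDR3 in both libraries, the 5 largest light chain clonotypes of each library, and features past the threshold. V-J pairs with different CDR3s in each library, V subgroups, and IGKV4-77 were named after their values were seen. Members and lists were chosen with earlier results of these data known. Alternatives were a minimum of 2 reads, merging of CDR3s with the same nucleotides, the same amino acids, or 1 mismatch to a neighbour of at least 10-fold more reads, leaving out the largest clonotype or the CDR3s in both libraries, splitting tied V hits, V subgroups, and shares of all listed reads.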

Additional observations from a re-analysis of the deposited data

How the results depend on the processing

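No paired analysis was possible because each cell type had 1 library. Over 80 alternatives to the main comparisons, 63 kept their direction and side of the threshold, or stayed within 1.5 times a count. The difference in kappa share of light chain reads became 0.163 percentage points (p = 0.883) without the largest clonotypes and 0.0879 (p = 1) without the CDR3s in both libraries, where the difference by clonotypes was -1.02 (p = 1), and it was 6.79 (p = 0.00380) by reads and 7.87 (p = 0.101) by clonotypes with at least 2 reads, all by Fisher's exact test. By V subgroups, 6 light chain V groups and 5 kappa V-J pairs differed by reads, against 14 and 11 by gene. With clonotypes of at least 2 reads, 18 kappa V-J pairs differed. The part of all features that passed in these settings was not computed. The number of kappa J genes that passed was 1 without the largest clonotypes (IGKJ4) and 1 without the CDR3s in both libraries (IGKJ2). The share of 11 amino acid CDR3s by clonotypes differed by 14.0 points without the CDR3s in both libraries (exact p = 0.0213). Kappa clonotypes with a CDR3 in both libraries were 11.8% of CD8αα with at least 2 reads, and 33.3% of CD8αα and 51.1% of CD8αβ by amino acids. The excess of joins without added bases among shared CDR3s, 11.2 points in CD8αα and 12.5 in CD8αβ, became in CD8αα 32.3 points (exact p = 0.000191) when mismatches were also barred and 31.8 (exact p = 7.23e-05) for wholly germline CDR3s, both added after seeing the data. In CD8αβ it was 14.8 (exact p = 0.284) with at least 2 reads, 11.7 (exact p = 0.0920) with the same V and J hits and 9.09 (exact p = 0.138) for 11 amino acid CDR3s only, the last added after seeing the data. Differences of single J genes changed sign: IGKJ1, at -0.840 points, became 0.0759 without the largest clonotypes, 2.33 without the CDR3s in both libraries and 1.84 as a share of all listed reads. IGKJ2, at -5.28, became 0.875 on that last scale, and IGKJ5, at -0.539, became 3.76 without the CDR3s in both libraries and 1.53 on that scale. The cause of these changes was not tested. The shallower CD8αβ list, with 209 kappa and 26 lambda reads, limits what could be detected.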
